A study of Mus musculus with 6 samples.

Results

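The pentose phosphate pathway was followed through 10 genes of the mouse: the transketolase genes Tkt, Tktl1 and Tktl2, the transaldolase gene Taldo1, the oxidative enzymes G6pdx, H6pd, Pgls and Pgd, and the isomerases Rpia and Rpe. All 10 were listed among the 17577 genes of each library, and members were matched by symbol. Tktl1 was chosen by its own measured values, nearly absent in wild-type oocytes and abundant in the mutant, so its levels are described here without a test. The other 9 genes entered as its paralogs or as enzymes of the same pathway. Transcripts were measured in germinal vesicle (GV) oocytes of 12-week-old C57BL/6 J mice, in 3 libraries of the genotype Bnc1tr/tr and 3 of WT. Bnc1tr/tr mice carry, in every cell and in both copies, a frameshift that truncates basonuclin 1, a zinc finger transcription factor of germ cells and of the basal layer of epithelia. All animals had been primed with pregnant mare serum gonadotropin, littermates were compared, and each library was made by Smart-seq2, which amplifies full-length cDNA and which the study's methods describe from a single oocyte. The study names biological replicates in each group, but whether each library came from a separate animal was not stated, so p-values measure the spread between these libraries.

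The pathway leaves glycolysis at glucose 6-phosphate. Its oxidative phase reduces NADP to NADPH, the electron donor for glutathione and thioredoxin reduction and for lipid synthesis, and ends in ribulose 5-phosphate. Its non-oxidative phase interconverts pentose phosphates with glycolytic intermediates and supplies ribose 5-phosphate for nucleotides. Transketolase moves carbon units between these sugars with thiamine diphosphate as its cofactor, and transaldolase does so without it. In the ovarian follicle, use of glucose through this pathway is known to accompany oocyte growth and the resumption of meiosis.

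Levels are given in the unit the authors deposited, FPKM, in which fragments are divided by transcript length and by the mapped fragments of the library, so that genes can be compared per length. Differences are given as log2 fold changes of Bnc1tr/tr over WT on log2(FPKM + 1), a scale that understates the change of low genes. A gene was called changed in the limma fit over all genes averaging 1 FPKM or more where the Benjamini-Hochberg adjusted p was under 0.05 and the absolute log2 fold change over 0.5. Over all 10560 tested genes the median was 0.15 on this scale, and values relative to it are given beside those of the main genes. The FPKM of a library summed to between 657550 and 724550, and between 15258 and 15736 genes had a value above 0 in Bnc1tr/tr against 13896 to 14576 in WT. From the spacing of low FPKM values, depth came to about 13.3, 16.8 and 17.1 M mapped fragments (M, mega) in Bnc1tr/tr and 14.9, 16.1 and 21.2 M in WT. Bnc1 itself was at 9.04, 6.51 and 5.83 FPKM in Bnc1tr/tr and at 13.17, 12.54 and 16.23 FPKM in WT, so the transcript of the truncated allele was still measured. It fell by 0.89 on the log2 scale (limma adjusted p = 0.0090).

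The 3 transketolase genes lie on different chromosomes. Their promoters, 250 bases before to 50 bases after the annotated start, are shown because they are the paralogs whose levels parted in these libraries. The sequences are from RefSeq for the build GRCm38.p6, read 5′ to 3′ on the strand of the gene, with each CG dinucleotide in capitals. Tktl1 is at chrX:74177009-74177308 on the plus strand, Tkt at chr14:30548881-30549180 on the plus strand and Tktl2 at chr8:66511490-66511789 on the plus strand.
Tktl1: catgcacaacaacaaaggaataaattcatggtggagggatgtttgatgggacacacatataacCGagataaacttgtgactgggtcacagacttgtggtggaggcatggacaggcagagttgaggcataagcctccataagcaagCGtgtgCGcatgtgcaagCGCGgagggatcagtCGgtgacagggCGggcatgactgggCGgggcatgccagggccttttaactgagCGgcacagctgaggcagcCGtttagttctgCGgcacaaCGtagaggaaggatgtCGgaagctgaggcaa
Tkt: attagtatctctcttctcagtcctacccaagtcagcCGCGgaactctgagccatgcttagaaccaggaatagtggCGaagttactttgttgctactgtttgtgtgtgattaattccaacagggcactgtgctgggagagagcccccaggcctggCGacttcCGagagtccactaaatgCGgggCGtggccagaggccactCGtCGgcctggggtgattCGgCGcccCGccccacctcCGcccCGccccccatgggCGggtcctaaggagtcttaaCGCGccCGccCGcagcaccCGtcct
Tktl2: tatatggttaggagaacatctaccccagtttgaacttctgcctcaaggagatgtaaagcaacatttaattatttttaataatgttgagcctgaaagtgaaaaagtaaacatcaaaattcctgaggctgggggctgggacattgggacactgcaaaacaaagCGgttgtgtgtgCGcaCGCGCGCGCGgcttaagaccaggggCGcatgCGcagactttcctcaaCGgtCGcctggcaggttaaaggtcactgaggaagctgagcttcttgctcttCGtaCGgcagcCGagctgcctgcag

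The Tktl1 promoter held 13 CG dinucleotides, more than 61.5% of the 27025 promoters of the reference, against 20 for Tkt (more than 73.2%) and 14 for Tktl2 (more than 63.1%). The median promoter held 7. Promoters were searched on both strands for the TATA box (TATAAA), the CCAAT box, the GC box (GGGCGG), the E box (CACGTG) and the core of the antioxidant response element (TGACNNNGC). The TATA box and the E box were found in none of the 3, and they occur in 14.2% and 7.24% of all promoters. The GC box, present in 35.9% of all promoters, was found 2 times in Tktl1 and 5 times in Tkt. The CCAAT box, present in 37.9%, was found 1 time in Tktl2. The antioxidant response core, present in 12.5%, was found 2 times in Tktl1, and both matches overlapped a GC box. These matches describe the letters of the windows and are not binding sites.

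In the coding sequence, Tktl1 was closer to Tktl2 than to Tkt. The longest coding sequences in GENCODE M21 hold 595 codons for Tktl1, 623 for Tkt and 627 for Tktl2. Aligned bases were identical at 75.7% between Tktl1 and Tktl2, at 66.3% between Tktl1 and Tkt and at 67.6% between Tkt and Tktl2. Tktl1 spans 13 exons and Tkt 14, and Tktl2 has 2. Of the 31-base words in their transcripts, other genes shared 0% for Tktl1, 0% for Tktl2 and 0.229% for Tkt, so few or no reads of that length would match more than 1 gene.

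Tktl1 was at 80.84, 76.88 and 77.07 FPKM in Bnc1tr/tr replicates 1 to 3 and at 0.12, 0.67 and 0.39 FPKM in WT. The lowest Bnc1tr/tr library was far above the highest WT library, and the Bnc1tr/tr libraries lay close together. The group means were 78.3 ± 2.23 and 0.393 ± 0.275 FPKM (SD, n = 3), a ratio of 199, and the difference of the log2 means was 5.85, or 5.70 relative to the median gene. At the estimated depths, 3 fragments on the Tktl1 transcript equal 0.0624 to 0.10 FPKM. The WT values correspond to about 4.03, 24.7 and 18.7 fragments and the Bnc1tr/tr values to 2420, 2900 and 2970, so Tktl1 was low in WT and, at least in WT replicates 2 and 3, above a few fragments. Among the 17577 listed genes Tktl1 ranked between 1526 and 1598 in the Bnc1tr/tr libraries and between 10469 and 12947 in WT.

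**Figure D1:**
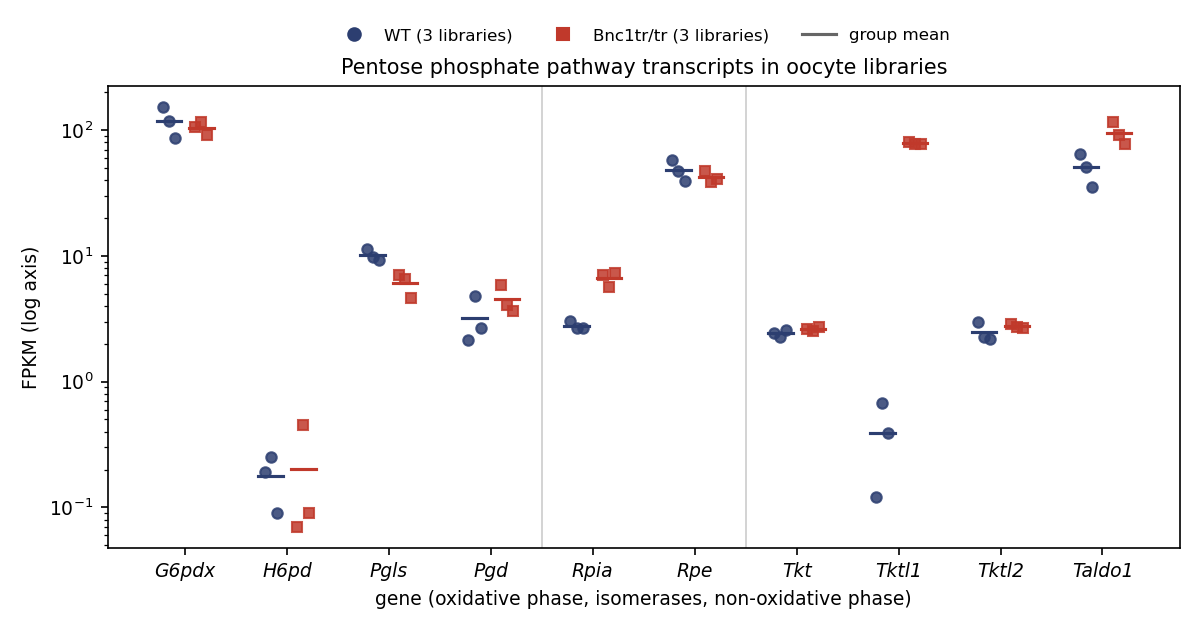
FPKM of the 10 genes on a log axis, with circles for the 3 WT libraries, squares for the 3 Bnc1tr/tr libraries and a line for each group mean. Tktl1 is at 76.88 to 80.84 FPKM in Bnc1tr/tr and at 0.12 to 0.67 FPKM in WT, while the symbols of Tkt and Tktl2 overlap between the genotypes.

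The other transketolase genes were low in both genotypes, and neither passed the test. Tkt, the ubiquitous transketolase, was at 2.63, 2.54 and 2.73 FPKM in Bnc1tr/tr and at 2.42, 2.27 and 2.56 FPKM in WT, with overlapping groups. Its log2 fold change was 0.09 (95% interval -0.25 to 0.43, adjusted p = 0.69), -0.06 relative to the median gene, and it turned to -0.01, -0.07 and -0.35 under upper-quartile, median-ratio and quantile scaling. Tktl2, a copy with few introns, was at 2.89, 2.74 and 2.69 FPKM in Bnc1tr/tr and at 3.0, 2.25 and 2.17 FPKM in WT. Its groups overlapped too, with a log2 fold change of 0.13 (95% interval -0.25 to 0.50, adjusted p = 0.60), which turned to -0.03 and -0.30 under median-ratio and quantile scaling. The intervals leave room for differences of up to 0.43 and 0.50 on this scale.

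The make-up of the transketolase transcripts therefore differed through Tktl1. The summed FPKM of the 3 genes was 83.7 ± 2.34 in Bnc1tr/tr and 5.28 ± 0.225 in WT (SD, n = 3). Tktl1 accounted for 93.4% to 93.6% of that sum in Bnc1tr/tr and for 2.17% to 12.9% in WT. Tkt and Tktl2 together were at 5.41 ± 0.121 FPKM in Bnc1tr/tr and at 4.89 ± 0.471 FPKM in WT. The ratio of Tktl1 to Tkt was 28.2 to 30.7 in Bnc1tr/tr and 0.0496 to 0.295 in WT. These shares contain the values by which Tktl1 was selected and carry no test.

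**Figure D2:**
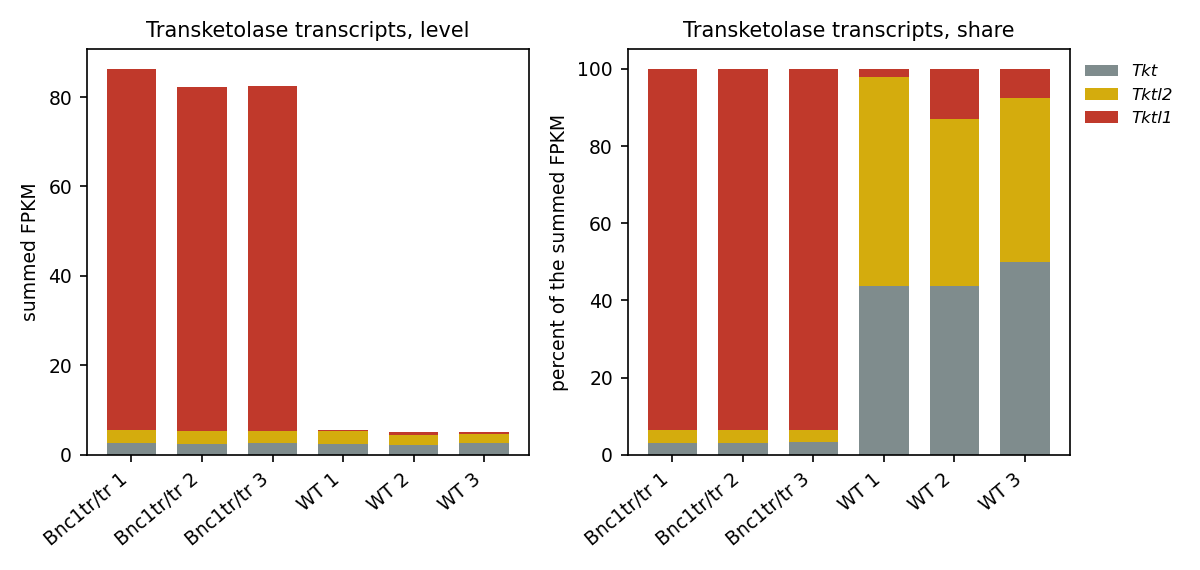
Summed FPKM of Tkt, Tktl2 and Tktl1 in each library (left) and the percent that each gene takes of that sum (right), as stacked bars from 0. The sum is 82.16 to 86.36 FPKM in the Bnc1tr/tr libraries and 5.12 to 5.54 FPKM in WT, and Tktl1 fills 93.4% to 93.6% of the Bnc1tr/tr bars.

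Of the 9 genes other than Tktl1, 8 passed the filter on low values, and of these 2 rose, 1 fell and 5 did not pass. Of all 10560 tested genes 31.8% were called, 24.1% higher and 7.68% lower, so the 3 calls among 8 enzymes (37.5%) are near that background. The median of the 8 enzymes' log2 fold changes was 0.11, against 0.15 for the whole fit. H6pd did not pass the filter. Within a library, RNA of the oocyte and RNA of any cell carried over with it cannot be told apart.

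Of the genes of the oxidative phase, G6pdx was the highest. G6pdx encodes glucose 6-phosphate dehydrogenase, the entry and rate-limiting enzyme, and it was at 105.13, 115.18 and 91.72 FPKM in Bnc1tr/tr and at 152.64, 117.77 and 86.95 FPKM in WT. The groups overlapped, with WT replicate 1 highest, and the log2 fold change was -0.16 (SE 0.22, adjusted p = 0.62), turning to 0.03 without WT replicate 1. H6pd, the form of the enzyme in the endoplasmic reticulum, was at 0.07, 0.45 and 0.09 FPKM in Bnc1tr/tr and at 0.19, 0.25 and 0.09 FPKM in WT, under 0.5 FPKM throughout. G6pdx shared 23.6% of its 31-base words with other genes, mainly G6pd2, its intronless copy, and Ikbkg, which overlaps it, so its level is uncertain to that extent.

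Pgls encodes the lactonase that opens the product of G6pdx, and it was the member that fell. It was at 7.09, 6.57 and 4.64 FPKM in Bnc1tr/tr and at 11.35, 9.71 and 9.29 FPKM in WT, and all Bnc1tr/tr libraries were below all WT libraries. The log2 fold change was -0.66 (SE 0.19, adjusted p = 0.028), -0.80 relative to the median gene. The call was lost without Bnc1tr/tr replicate 2, Bnc1tr/tr replicate 3, WT replicate 1 or WT replicate 2 (adjusted p = 0.053, 0.095, 0.081 and 0.075), and 19.5% of its words occur in transcripts of other genes, mainly Fam129c. Pgd, the phosphogluconate dehydrogenase that makes more NADPH of the phase, was at 5.84, 4.08 and 3.65 FPKM in Bnc1tr/tr and at 2.14, 4.77 and 2.67 FPKM in WT. The groups overlapped through WT replicate 2, and the log2 fold change was 0.43 (SE 0.26, adjusted p = 0.24). The order G6pdx, Pgls, Pgd, H6pd held in the means of both genotypes, although the ranges of Pgls and Pgd overlapped in Bnc1tr/tr and did not in WT.

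Of the isomerases, Rpia rose and Rpe did not pass the test. Rpia converts ribulose 5-phosphate to ribose 5-phosphate and was at 7.03, 5.69 and 7.31 FPKM in Bnc1tr/tr and at 3.02, 2.69 and 2.67 FPKM in WT. Every Bnc1tr/tr library was above every WT library, and Rpia rose by a log2 fold change of 1.01 (SE 0.16, adjusted p = 0.0018), 0.87 relative to the median gene. This call was kept under every alternative that tested it, with log2 fold changes from 0.63 to 1.22. Rpe converts the same substrate to xylulose 5-phosphate, and it was at 46.96, 38.43 and 40.80 FPKM in Bnc1tr/tr and at 57.53, 47.39 and 39.45 FPKM in WT. Its groups overlapped, the log2 fold change was -0.18 (SE 0.19, adjusted p = 0.51), and 16.4% of its words occur in other genes, mainly the overlapping Kansl1l. The ratio of Rpe to Rpia was 6.34 ± 0.656 in Bnc1tr/tr and 17.1 ± 2.14 in WT (SD, n = 3), a description with no test of its own.

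Taldo1 encodes transaldolase and held position 2 by mean FPKM among the members in both genotypes. It was at 115.46, 91.03 and 77.92 FPKM in Bnc1tr/tr and at 64.97, 51.21 and 35.24 FPKM in WT, without overlap. It rose by a log2 fold change of 0.92 (SE 0.25, adjusted p = 0.021), 0.77 relative to the median gene, and by 0.70 to 0.85 under the other scalings. The call was lost without the filter on low values and without Bnc1tr/tr replicate 1, Bnc1tr/tr replicate 2 or WT replicate 2 (adjusted p = 0.056, 0.078, 0.058 and 0.055), and 14.0% of its words occur in other genes, mainly Gm17823. The ratio of G6pdx to Taldo1 was 1.12 ± 0.187 in Bnc1tr/tr and 2.37 ± 0.0874 in WT (SD, n = 3), so the ranges of the pair overlapped in Bnc1tr/tr and were apart in WT.

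**Figure D3:**
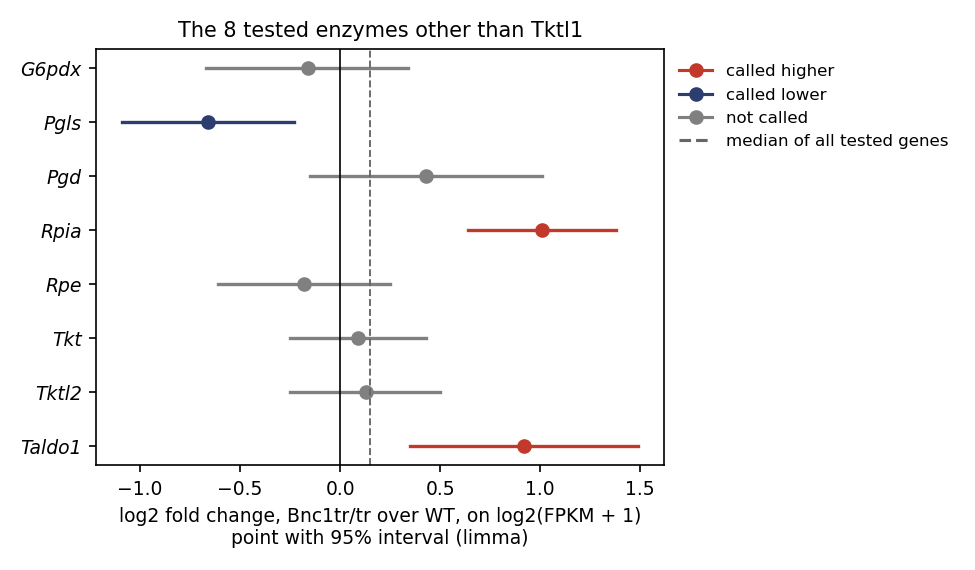
Log2 fold change of Bnc1tr/tr over WT on log2(FPKM + 1) for the 8 tested enzymes, as points with 95% intervals from limma, with a dashed line at the median of all tested genes (0.15). Rpia (1.01) and Taldo1 (0.92) lie to the right, Pgls (-0.66) lies to the left, and the intervals of the other 5 cross 0.

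By level, the order of the members changed mainly at Tktl1. In WT the means ran from G6pdx (119 FPKM) through Taldo1 (50.5), Rpe (48.1), Pgls (10.1), Pgd (3.19), Rpia (2.79), Tktl2 (2.47), Tkt (2.42) and Tktl1 (0.393) to H6pd (0.177). In Bnc1tr/tr they ran from G6pdx (104 FPKM) through Taldo1 (94.8), Tktl1 (78.3), Rpe (42.1), Rpia (6.68), Pgls (6.10), Pgd (4.52), Tktl2 (2.77) and Tkt (2.63) to H6pd (0.203). Tktl1 moved from position 9 to position 3. The ranges of neighbours overlapped in WT for Taldo1 and Rpe, for Pgd, Rpia, Tktl2 and Tkt in turn, and for Tktl1 and H6pd. In Bnc1tr/tr they overlapped for G6pdx, Taldo1 and Tktl1 in turn, for Rpia, Pgls and Pgd in turn, and for Tktl2 and Tkt.

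Tktl1 and G6pdx lie on the same stretch of the X chromosome. In RefSeq GRCm38.p6, Tktl1 spans chrX:74177259-74208498 on the plus strand and G6pdx spans chrX:74409483-74428880 on the minus strand, 201.0 kb further on. The 10 nearest listed genes on each side of Tktl1 were therefore examined. Of these 20 genes, 14 were tested and 5 rose (Ssr4, Hcfc1, Opn1mw, Tex28 and Rpl10), against the background of 24.1% higher, and the call of Ssr4 was lost in 9 of 14 alternatives. Both genes next to Tktl1 on its upstream side were among those that rose.

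Opn1mw, the medium-wave cone opsin, was at 9.74, 11.45 and 13.79 FPKM in Bnc1tr/tr and at 0.00, 0.06 and 0.14 FPKM in WT. Tex28, a gene named for its expression in testis, was at 3.85, 2.68 and 1.31 FPKM in Bnc1tr/tr and at 0.00, 0.20 and 0.00 FPKM in WT. For both, every Bnc1tr/tr library was above every WT library, and WT was at or near 0. Opn1mw rose by a log2 fold change of 3.56 (SE 0.18, adjusted p = 2.8e-06) and Tex28 by 1.70 (SE 0.26, adjusted p = 0.0014), fitted values that depend on the pseudocount because WT is near 0. Both passed the filter on low values only through their Bnc1tr/tr levels, and with no filter the adjusted p was 0.00016 for Opn1mw and 0.011 for Tex28 (limma). The next genes downstream were at other levels. Flna, which encodes filamin A and whose nearer end lies 15.0 kb beyond Tktl1, was at 0.06 to 0.19 FPKM in Bnc1tr/tr and at 0.06 to 0.15 FPKM in WT, under the filter. Emd, which encodes emerin, was at 11.48 to 16.09 FPKM in Bnc1tr/tr and at 11.48 to 14.95 FPKM in WT, with a log2 fold change of 0.06 (SE 0.19, adjusted p = 0.84).

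The order on the chromosome is Opn1mw, Tex28, Tktl1, Flna, Emd. Opn1mw spans chrX:74127466-74150756 on the plus strand, Tex28 chrX:74150909-74167838 on the minus strand, and Tktl1 follows on the plus strand. Tktl1 and Tex28 are thus annotated on opposite strands with their starts at their adjacent ends, and they are read away from each other. Neither Opn1mw nor Tex28 shared a 31-base word with another gene. No strand information accompanied the values. The promoters of both genes are shown for comparison with that of Tktl1, with CG dinucleotides in capitals as above, from chrX:74127216-74127515 on the plus strand for Opn1mw and from chrX:74167789-74168088 on the minus strand for Tex28.
Opn1mw: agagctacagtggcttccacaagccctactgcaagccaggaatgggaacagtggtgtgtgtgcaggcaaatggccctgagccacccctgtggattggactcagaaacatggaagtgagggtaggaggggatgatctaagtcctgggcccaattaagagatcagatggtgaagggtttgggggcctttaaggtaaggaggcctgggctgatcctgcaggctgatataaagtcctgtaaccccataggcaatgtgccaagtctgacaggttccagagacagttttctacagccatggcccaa
Tex28: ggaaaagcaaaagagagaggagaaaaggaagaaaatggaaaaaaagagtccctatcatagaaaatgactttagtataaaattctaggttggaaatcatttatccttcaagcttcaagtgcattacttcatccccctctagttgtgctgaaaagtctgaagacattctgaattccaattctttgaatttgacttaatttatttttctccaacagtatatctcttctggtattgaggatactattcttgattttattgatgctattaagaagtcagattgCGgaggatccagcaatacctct

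The neighbours' promoters held fewer CG dinucleotides than the Tktl1 promoter, 0 in the Opn1mw window and 1 in the Tex28 window against 13. The share of G and C bases was 53.0% for Opn1mw, 34.0% for Tex28 and 54.3% for Tktl1. The TATA box was found 1 time in each of the neighbours and the CCAAT box 2 times in Opn1mw and 1 time in Tex28. The GC box and the antioxidant response core, present in the Tktl1 window, were found in neither. The matches are again letters of these windows and no more.

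**Figure D4:**
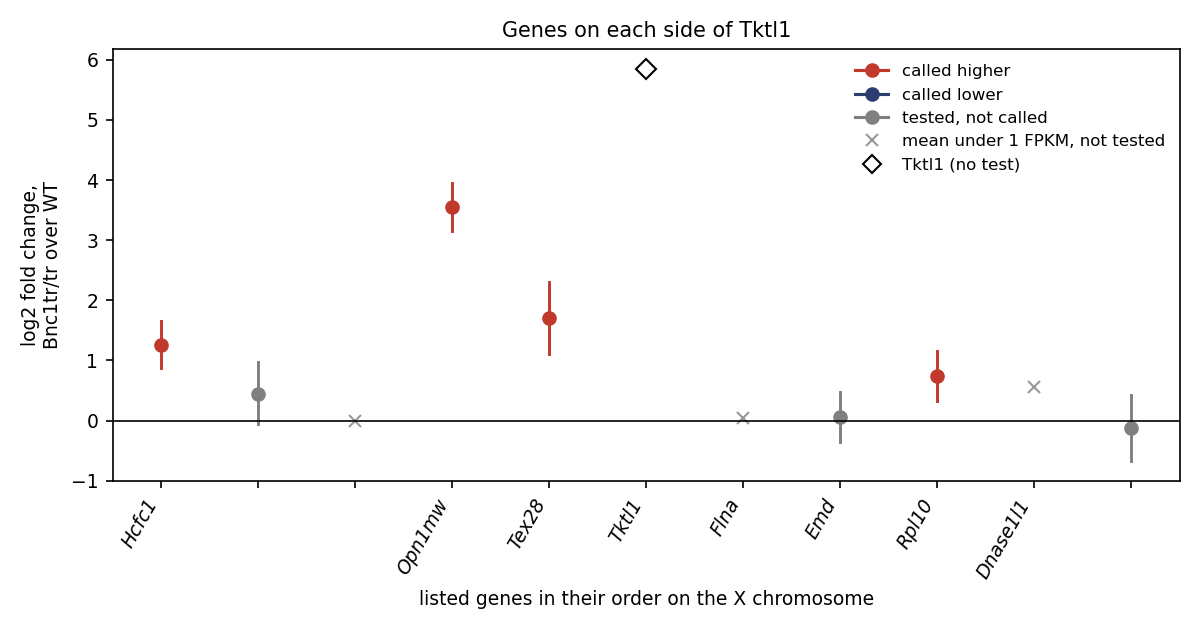
Log2 fold change of Bnc1tr/tr over WT for the 5 nearest listed genes on each side of Tktl1, in their order on the X chromosome with those described in the text named, with 95% intervals from limma and crosses for genes under the filter. Opn1mw (3.56) and Tex28 (1.70) stand beside Tktl1 (5.85, no test), and Flna and Emd on the other side are near 0.

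Genes with levels most like those of Tktl1 were ranked by the mean absolute difference of log2(FPKM + 1) over the 6 libraries, among genes averaging 1 FPKM or more. The nearest were 4930486L24Rik (0.21), Slc43a1 (0.29), Gjb2 (0.31), Mt2 (0.31) and Sprr1a (0.44). Slc43a1 encodes an amino acid transporter, Gjb2 connexin 26, Mt2 a metallothionein and Sprr1a a small proline-rich protein of the cornified envelope. Slc43a1 was at 102.09, 81.46 and 54.25 FPKM in Bnc1tr/tr and at 0.30, 1.10 and 0.16 FPKM in WT. Gjb2 was at 113.09, 89.51 and 83.43 FPKM in Bnc1tr/tr and at 0.79, 0.50 and 0.63 FPKM in WT. The likeness was used to choose these genes, so it carries no test, and other genes held 88.4% of the words of 4930486L24Rik and 58.1% of those of Mt2.

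Genes that feed or use the pathway were followed in 9 lists of 72 genes, of which 69 were listed, 50 were tested, 12 rose, 6 fell and 32 did not pass. Of the 12 that rose, 4 (Hk2, Hsd11b1, Slc19a3 and Gsr) averaged under 1 FPKM in WT and passed the filter on low values only through Bnc1tr/tr, so the counts of these lists are a description. With no filter, where 17574 genes were fitted, 15.6% were called higher and 3.83% lower, and the first 3 of these kept their calls while Gsr did not (adjusted p = 0.099). The share called was 36.0%, against 31.8% of all tested genes, and the median log2 fold change was 0.20 against 0.15. The split of higher and lower calls depended on scaling: quantile normalization gave 8 higher and 10 lower in place of 12 and 6. Without Bnc1tr/tr replicate 1 the calls numbered 11, 7 higher and 4 lower. Of the 18 calls, 10 were kept under every alternative other than the fold threshold of 1 and the comparison of Bnc1tr/tr replicate 3 alone. At an absolute log2 fold change over 1, 7 of the 18 calls remained.

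Of 5 tested genes in the list named glucose 6-phosphate supply, 3 rose and 1 fell, against 24.1% higher and 7.68% lower of all tested genes. The list also holds Hsd11b1, which does not make glucose 6-phosphate, and G6pc3, which removes it. Hk2 and Hsd11b1 are among the genes that passed the filter only through Bnc1tr/tr, so the count is a description. Hk2, the hexokinase that makes glucose 6-phosphate, was at 3.62, 4.90 and 3.18 FPKM in Bnc1tr/tr and at 0.23, 0.30 and 0.19 FPKM in WT, without overlap, and rose by a log2 fold change of 1.97 (adjusted p = 6.7e-05, and 0.00083 with no filter). Hsd11b1, the endoplasmic reticulum reductase that draws on the NADPH made by H6pd, was at 8.60, 10.82 and 5.39 FPKM in Bnc1tr/tr and at 0.30, 0.44 and 0.54 FPKM in WT, and rose by 2.66 (adjusted p = 5.4e-05, and 0.0015 with no filter). Gpi1, which links glucose 6-phosphate to fructose 6-phosphate, rose by 0.71 (adjusted p = 0.015), with 21.6% of its words in other genes. G6pc3, a phosphatase that removes glucose 6-phosphate, fell by 0.73 on the log2 scale (adjusted p = 0.0091). Hk1, the hexokinase of most tissues, was at 0.08 to 0.41 FPKM in Bnc1tr/tr and at 0.00 to 0.18 FPKM in WT and was not tested.

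Of the NADPH-using reductases, 3 of 5 tested genes were higher and 0 lower in limma, also at an unadjusted p under 0.05. The limma fit called 24.1% of all tested genes higher and 7.68% lower, and with so few genes the count is a description. Nqo1, a quinone reductase, was at 29.46, 25.99 and 31.95 FPKM in Bnc1tr/tr and at 4.87, 5.81 and 9.83 FPKM in WT, without overlap, and rose by 1.99 (adjusted p = 0.00032). Txnrd1, the cytosolic thioredoxin reductase, was at 52.97, 38.89 and 47.45 FPKM in Bnc1tr/tr and at 22.48, 21.49 and 22.02 FPKM in WT, and rose by 1.03 (adjusted p = 0.0020). Gsr, glutathione reductase, was at 0.56 to 3.29 FPKM over the 6 libraries and rose by 0.74 (adjusted p = 0.049), a call that 11 of 13 alternatives lost. Of the other sources of NADPH, 2 of 9 tested genes rose and 1 fell. Idh1, the cytosolic isocitrate dehydrogenase, was at 70.90, 62.26 and 65.88 FPKM in Bnc1tr/tr and at 32.87, 35.01 and 27.07 FPKM in WT, and rose by 1.05 (adjusted p = 0.0017). Nadk, which makes NADP from NAD, rose by 0.80 (adjusted p = 0.016), and Me2, a mitochondrial malic enzyme, fell by 0.78 on the log2 scale (adjusted p = 0.021). Me1, the cytosolic malic enzyme and the highest of this list, was at 182.91 to 190.70 FPKM in Bnc1tr/tr and at 149.20 to 205.60 FPKM in WT and did not pass (log2 fold change 0.03, adjusted p = 0.91).

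The supply of thiamine, the vitamin behind the transketolase cofactor, was also followed. Slc19a3, a thiamine transporter of the cell membrane, was at 1.28, 2.33 and 2.27 FPKM in Bnc1tr/tr and at 0.25, 0.23 and 0.38 FPKM in WT, and rose by 1.18 (adjusted p = 0.0018, and 0.0068 with no filter). Of the other enzymes that use thiamine diphosphate, 0 of 7 tested passed in limma, where 3 were higher at an unadjusted p under 0.05 (Ogdh, Dhtkd1 and Pdhb). Over all tested genes limma called 24.1% higher and 7.68% lower, and with so few genes the count is a description. Ogdh, of the 2-oxoglutarate dehydrogenase complex, came nearest with a log2 fold change of 0.64 (adjusted p = 0.071).

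Downstream of the pathway, the genes of the return to glycolysis moved in both directions, with 1 of 8 higher and 2 lower. Over all tested genes, 24.1% were called higher and 7.68% lower. Tpi1, triose phosphate isomerase, was at 39.91, 27.47 and 16.31 FPKM in Bnc1tr/tr and at 84.13, 73.99 and 51.86 FPKM in WT, and fell by 1.36 on the log2 scale (adjusted p = 0.011). Fbp1, a fructose bisphosphatase, was at 49.56, 61.68 and 56.49 FPKM in Bnc1tr/tr and at 102.78, 110.29 and 84.11 FPKM in WT, and fell by 0.81 (adjusted p = 0.0083). Its paralog Fbp2 rose by 0.52 (adjusted p = 0.048), a call that 11 of 14 alternatives lost. Of the genes that use ribose 5-phosphate, 1 of 4 tested fell: Prpsap1, a partner of phosphoribosyl pyrophosphate synthetase, by 0.97 on the log2 scale (adjusted p = 0.019). In the side routes of sugar phosphates, Pgm2, which acts on ribose 1-phosphate, rose by 0.73 (adjusted p = 0.041), a call that 9 of 14 alternatives lost, and Idnk, a gluconate kinase, fell by 0.65 (adjusted p = 0.024). Of 5 regulators, Nfe2l2, Keap1, Tigar, Sirt2 and Sirt5, 0 passed in limma, with log2 fold changes from -0.12 to 0.39 and 1 (Tigar) at an unadjusted p under 0.05.

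**Figure D5:**
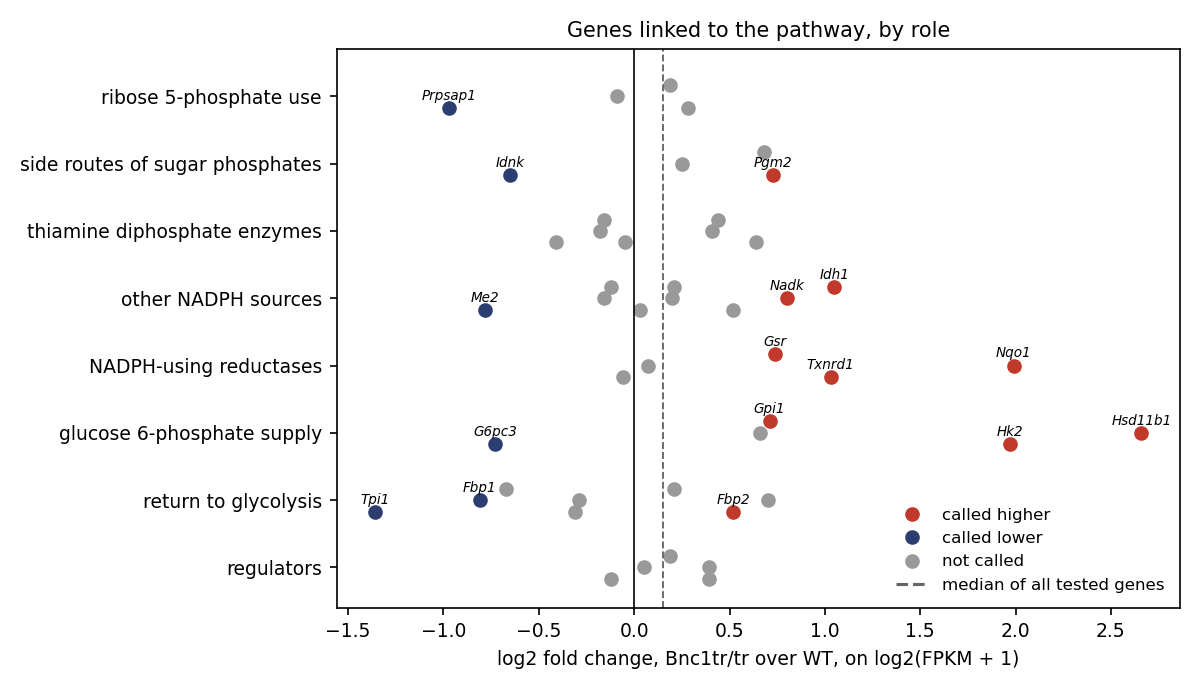
Log2 fold change of Bnc1tr/tr over WT on log2(FPKM + 1) for the tested genes of 8 of the 9 lists, leaving out thiamine supply, 1 row per list, with the called genes named and a dashed line at the median of all tested genes (0.15). Hsd11b1 (2.66), Nqo1 (1.99) and Hk2 (1.97) lie farthest to the right and Tpi1 (-1.36) farthest to the left.

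Markers of the oocyte and of other ovarian cells were measured in the same libraries. Beside their counts, the limma fit called 24.1% of all tested genes higher and 7.68% lower. The 12 oocyte markers summed to 15617.87 to 16968.73 FPKM in Bnc1tr/tr and 17925.77 to 19535.30 FPKM in WT, and 2 of 12 fell (Zp2 and Nlrp5) while 0 rose in limma, with 1 higher and 3 lower at an unadjusted p under 0.05. The granulosa or cumulus list summed to 43.30 to 60.52 FPKM in Bnc1tr/tr and 22.77 to 40.03 FPKM in WT, with 2 of 5 tested genes higher (Fshr and Kitl). Within it Fshr was at 4.54 to 5.83 FPKM in Bnc1tr/tr and 0 to 0.74 FPKM in WT, Cyp19a1 at 27.49 to 44.41 and 17.41 to 28.98 FPKM, and Foxl2 at 0 or 0.03 FPKM in all 6 libraries. Other members of this list went the other way in their means. Inha averaged 0.693 FPKM in Bnc1tr/tr and 3.42 FPKM in WT, Hsd17b1 0.197 and 0.787 FPKM, and Fst 0.0533 and 0.257 FPKM, all with overlapping groups. The means of Nr5a2 and Inhba were higher in Bnc1tr/tr, and neither was called. The epithelial list summed to 10.28 to 33.69 FPKM in Bnc1tr/tr and 0.95 to 3.20 FPKM in WT, with 3 of 4 tested genes higher. These 3 genes and Fshr averaged under 1 FPKM in WT. They passed the filter on low values only through Bnc1tr/tr, so the counts are a description. The theca or stroma list summed to 5.97 to 8.53 against 1.87 to 2.30 FPKM, with 1 of 1 tested gene higher. The endothelial list summed to 3.69 to 6.67 against 7.62 to 10.04 FPKM, with 1 of 1 tested gene (Pecam1) lower. Kdr of that list, under the filter, went the other way, at 0.53 to 1.54 against 0.07 to 0.12 FPKM. Cdh5 was at 0 to 0.02 FPKM in all libraries. Immune markers summed to 25.89 and 53.02 FPKM in Bnc1tr/tr replicates 1 and 2 and to 1.76 FPKM in replicate 3, against 1.39 to 3.0 FPKM in WT. Erythroid markers summed to 1.04 and 10.13 FPKM in the same replicates and to 0 elsewhere. Tktl1 was as high in Bnc1tr/tr replicate 3 (77.07 FPKM) as in the others, and Opn1mw was higher there (13.79 FPKM). With that replicate alone against WT, Rpia (adjusted p = 0.044) and Opn1mw (adjusted p = 0.010) kept their calls in limma and Taldo1, Pgls and Tex28 did not (0.35, 0.073 and 0.058). In that replicate the granulosa (45.85 FPKM), epithelial (10.28 FPKM) and theca or stroma (5.97 FPKM) sums were still above every WT library. The part of other cells in these differences was not tested.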

How the data were processed

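The authors deposited a table per library with 17577 genes, their NCBI Gene IDs and their symbols, in FPKM, relative to the mapped fragments of each library. The submitters' processing notes name HISAT2 2.0.4, Bowtie2 2.2.5, RSEM 1.2.12 and GRCm38.p6, without their roles. Read counts were not used here, so the values were tested with limma on log2(FPKM + 1). A test for counts, planned only in case counts were given, was not run. No molecular identifiers were used, so amplified fragments are not independent molecules and estimated depths and floors cover counting error only. FPKM is relative to a whole library, so abundant transcripts or total RNA can move all values.

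Libraries were grouped by the genotype in the labels. Of the symbols, 25 turned into dates by a spreadsheet were restored by Gene ID. The log2(FPKM + 1) values of the 10560 genes averaging 1 FPKM or more were fitted by genotype with limma 3.58.1 (R 4.3.3), with Benjamini-Hochberg adjustment over all of them. The fit was tested on simulated data. Members and gene lists were chosen with earlier results of these data known. Named genes were every member, every called gene of the linked lists (a few genes are not reported here), the 5 genes nearest to Tktl1 and Bnc1, and neighbours were named after their values were seen. Promoters and positions came from RefSeq (GRCm38.p6), coding sequences, strands and shared 31-base words from GENCODE M21 (GRCm38). Depth was estimated as the step that best made low FPKM times length whole multiples. Alternatives were another pseudocount, filter, scaling, variance model, fold threshold and a replicate block, and leaving out each library. Comparing Bnc1tr/tr replicate 3 alone with WT was added after seeing the data.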

Additional observations from a re-analysis of the deposited data

How the results depend on the processing

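The count of 3 called enzymes stayed within 2 and 3 under the other pseudocount, filters, scalings and variance model. It was 1 with an absolute log2 fold change over 1, 1 to 3 when a library was left out (1 without Bnc1tr/tr replicate 2 or WT replicate 2) and 1 with Bnc1tr/tr replicate 3 alone against WT, where a lone library is assumed to vary like the others. The 18 calls among linked genes became 7 with an absolute log2 fold change over 1, 11 to 17 when a library was left out (11 without Bnc1tr/tr replicate 1, 12 without WT replicate 2), 5 with Bnc1tr/tr replicate 3 alone and 13 to 19 under the other pseudocount, filters, scalings and variance model. The Tktl1 difference of 5.85 was 7.49 with a pseudocount of 0.1 and between 5.64 and 5.99 otherwise. Tkt reversed to -0.01, -0.07 and -0.35 under upper-quartile, median-ratio and quantile scaling, and Tktl2 to -0.03 and -0.30 under the last 2. G6pdx ranged from -0.37 to 0.03 when a library was left out. The cause of these changes was not tested. Deviations of same-numbered libraries from their group means had correlations of 0.28, -0.03 and 0.12. Libraries of different numbers were not compared in this way, so whether the numbers pair the samples was not tested. The replicate block gave 3 called enzymes and 21 linked genes, and Fbp2 lost its call. With 3 libraries a group and FPKM alone, values near 0.1 FPKM on a transcript as long as Tktl1 rest on a few fragments, and differences as wide as the intervals given cannot be told from 0.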

Other observations

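Some linked genes and neighbours had a mean under 1 FPKM and were left out of the counts above. In the limma fit with no filter, adjusted over all 17574 genes with a value above 0, of 26 such genes (H6pd, linked genes and neighbours of Tktl1) 4 linked genes and 1 neighbour rose and 0 fell, against 15.6% higher and 3.83% lower over that whole fit, and 9 were higher and 0 lower at an unadjusted p under 0.05. Prps2, a phosphoribosyl pyrophosphate synthetase, was at 0.78, 2.64 and 1.31 FPKM in Bnc1tr/tr and at 0.06, 0.11 and 0.05 FPKM in WT (log2 fold change 1.2, adjusted p = 0.026). Thtpa, a thiamine triphosphatase, was at 0.78, 1.02 and 0.44 FPKM in Bnc1tr/tr and at 0.00, 0.02 and 0.00 FPKM in WT (0.78, adjusted p = 0.013). Slc2a3, a glucose transporter, was at 1.19, 0.73 and 0.34 FPKM in Bnc1tr/tr and was listed at 0 in all WT libraries (0.78, adjusted p = 0.033). Ilvbl (0.54, adjusted p = 0.024) and Dnase1l1 (0.57, adjusted p = 0.0099) rose from WT values of at most 0.03 and 0.12 FPKM, so their levels rest on few fragments.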
